A study of Mus musculus with 22 samples.

Results

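Extracellular nucleotides are read by 2 families of receptor and cleared by enzymes on the cell surface, and 10 mouse genes of this system were followed across conventional dendritic cell (cDC) subsets. They were chosen by symbol, as the rows P2rx1, P2rx4 and P2rx7 (ATP-gated channels), P2ry6, P2ry10, P2ry12, P2ry13 and P2ry14 (P2Y receptors and a relative) and Entpd1 and Nt5e (ectonucleotidases), out of 34047 rows of the gene count table. At their loci lay 127 of the 177956 accessibility windows, in 56 peaks. RNA-seq was available for cDC1s and for cDC2s with and without T-bet, from spleen (3 libraries per subset) and from mesenteric lymph node (MLN, with 3 cDC1 libraries and 2 per cDC2 subset), and ATAC-seq, which measures how open chromatin is, for the same subsets from spleen (2 libraries of each).

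Every library came from Tbx21RFP-cre mice, in which RFP and Cre are expressed from the gene for T-bet, so that RFP stands for T-bet expression and the cDC1s and T-bet- cDC2s carried the same knock-in allele. The labels name no treatment, the mice were of both sexes and 6 to 10 weeks old, and the cells of a pair of mice were pooled for an RNA library according to the methods. The sort kept cells negative for lineage markers, CD64 and Ly6C and positive for CD11c and MHC class II, and took XCR1+ cells as cDC1s and CD11b+ cells with or without RFP as T-bet+ or T-bet- cDC2s. The subsets were taken from the sample labels, since a sentence of the methods exchanges RFP+ and RFP-. The labels do not say how replicates were separated, and p-values measure the spread between these libraries.

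ATP released by stressed or dying cells acts as a danger signal on P2X channels, of which P2RX7 needs the highest ATP and drives the inflammasome. The P2Y receptors couple to G proteins and read other ligands, among them ADP (P2RY12 and P2RY13), UDP (P2RY6) and UDP-sugars (P2RY14), while P2RY10 resembles them in sequence and responds to lysophosphatidylserine. CD39, the product of Entpd1, converts ATP and ADP to AMP, and CD73, the product of Nt5e, converts AMP to adenosine, which dampens immune cells through its own receptors.

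The loci lie on 7 chromosomes of mm10. P2rx7 (chr5:122643911-122691432) and P2rx4 (chr5:122707544-122729738) are neighbours on the plus strand with 16111 bases between them. P2ry14 (chr3:59113855-59153618), P2ry13 (chr3:59207892-59210882) and P2ry12 (chr3:59216272-59262871) form a cluster on the minus strand, within Med12l (chr3:59005825-59318682), which runs on the plus strand. Whether the reads were counted by strand is not given in the sources used here. P2ry12 alone of these 3 shares exonic bases with Med12l, so that reads of P2ry12 and Med12l cannot be told apart where their exons overlap. The other loci are P2rx1 (chr11:72999103-73015200), P2ry6 (chr7:100937630-100974649, minus strand), P2ry10 (chrX:107088492-107104974), Entpd1 (chr19:40612366-40741602) and Nt5e (chr9:88327197-88372092).

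Windows of 150 bases at 5 of these loci carry the accessibility results described after the RNA, and 5 are shown, picked after their values were seen, since each was called in at least 1 comparison. The name gives the distance of the window's centre from the start of the gene, with a minus for a window before the start. Sequences are the plus strand of GRCm38 (mm10), and capitals mark stretches that match 1 of the 7 motifs searched.

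P2ry14, + 530, chr3:59153013-59153162: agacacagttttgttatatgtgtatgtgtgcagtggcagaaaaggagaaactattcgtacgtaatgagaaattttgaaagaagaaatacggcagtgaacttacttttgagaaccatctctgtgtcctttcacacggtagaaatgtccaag

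P2ry12, + 43340, chr3:59219456-59219605: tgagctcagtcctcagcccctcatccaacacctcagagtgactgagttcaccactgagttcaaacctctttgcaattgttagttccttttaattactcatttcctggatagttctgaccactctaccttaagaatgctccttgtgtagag

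P2ry10, - 44373, chrX:107044044-107044193: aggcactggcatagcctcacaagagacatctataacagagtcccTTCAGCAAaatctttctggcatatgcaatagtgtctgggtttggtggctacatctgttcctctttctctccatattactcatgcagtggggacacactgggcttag

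Entpd1, + 66809, chr19:40679100-40679249: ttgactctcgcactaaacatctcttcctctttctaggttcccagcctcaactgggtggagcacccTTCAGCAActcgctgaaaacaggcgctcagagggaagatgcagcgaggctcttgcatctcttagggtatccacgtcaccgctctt

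Nt5e, + 21627, chr9:88348749-88348898: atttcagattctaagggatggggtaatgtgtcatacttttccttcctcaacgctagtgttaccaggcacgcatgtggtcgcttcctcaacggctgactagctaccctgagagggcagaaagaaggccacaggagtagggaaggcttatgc

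The P2ry14 window reaches into an exon of the gene near its start, and the P2ry12 window is within 2000 bases of an annotated P2ry12 transcript start inside the gene. The P2ry10 window is intergenic, and the Entpd1 and Nt5e windows are intronic. In capitals, the P2ry10 and Entpd1 windows each hold a C/EBP stretch.

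RNA libraries held 20993220 to 29006549 reads on genes and ATAC libraries 7270164 to 10081555 reads in windows. No pair held identical counts. Tbx21 was at 17.2 to 24.8 CPM (a gene's reads as a share of the library's, on the usual CPM scale with TMM size factors) in spleen T-bet+ cDC2s and at most 2.38 in the other spleen subsets, and at 2.93 to 7.19 against at most 0.918 in MLN. Xcr1 was at 806 or above in spleen cDC1s and at most 12.8 in spleen cDC2s. In spleen, cDC1 replicate 3 and T-bet- replicates 1 and 2 stood apart, with a negative correlation (Spearman's rho -0.46 to -0.30) between a gene's deviation and transcript GC content, against 0.19 to 0.33 in the other 6 libraries. No spleen T-bet+ library was among them. In MLN, a list of 5 genes of mature migratory DCs (Ccr7, Fscn1, Cacnb3, Il4i1 and Socs2) summed to 3398 CPM in cDC1 replicate 1 and to 12852 and 13584 in replicates 3 and 2, and to 2593 and 9992 CPM in T-bet+ replicates 1 and 2.

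In spleen, 5 of the 8 members that passed the filter on low counts were lower in T-bet+ cDC2s than in the T-bet- subset, and 0 were higher. Over all 14377 genes tested, 3.44% were lower and 1.95% higher (edgeR quasi-likelihood test, Benjamini-Hochberg adjusted p under 0.05). The 5 were P2rx7, P2ry6, P2ry12, P2ry13 and P2ry14, and their folds ranged from a log2 fold change of -1.98 for P2ry6 to -5.80 for P2ry13. P2rx7, P2ry12, P2ry13 and P2ry14 belong to the core list that the study chose on these libraries, so their count is not independent evidence of a direction. The median log2 fold change of the 8 was -1.98, beside -0.01 over all genes. In bulk libraries, fewer cells with a transcript and less transcript per cell cannot be told apart.

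Against spleen cDC1s, T-bet+ cDC2s had 1 member higher (P2ry10) and 3 lower (P2rx7, P2ry6 and P2ry14), where 9.97% of all genes were higher and 8.2% lower. T-bet- cDC2s had 1 higher (P2ry13) and 1 lower (P2ry14) than cDC1s, where 9.65% of all genes were higher and 6.2% lower.

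**Figure D1:**
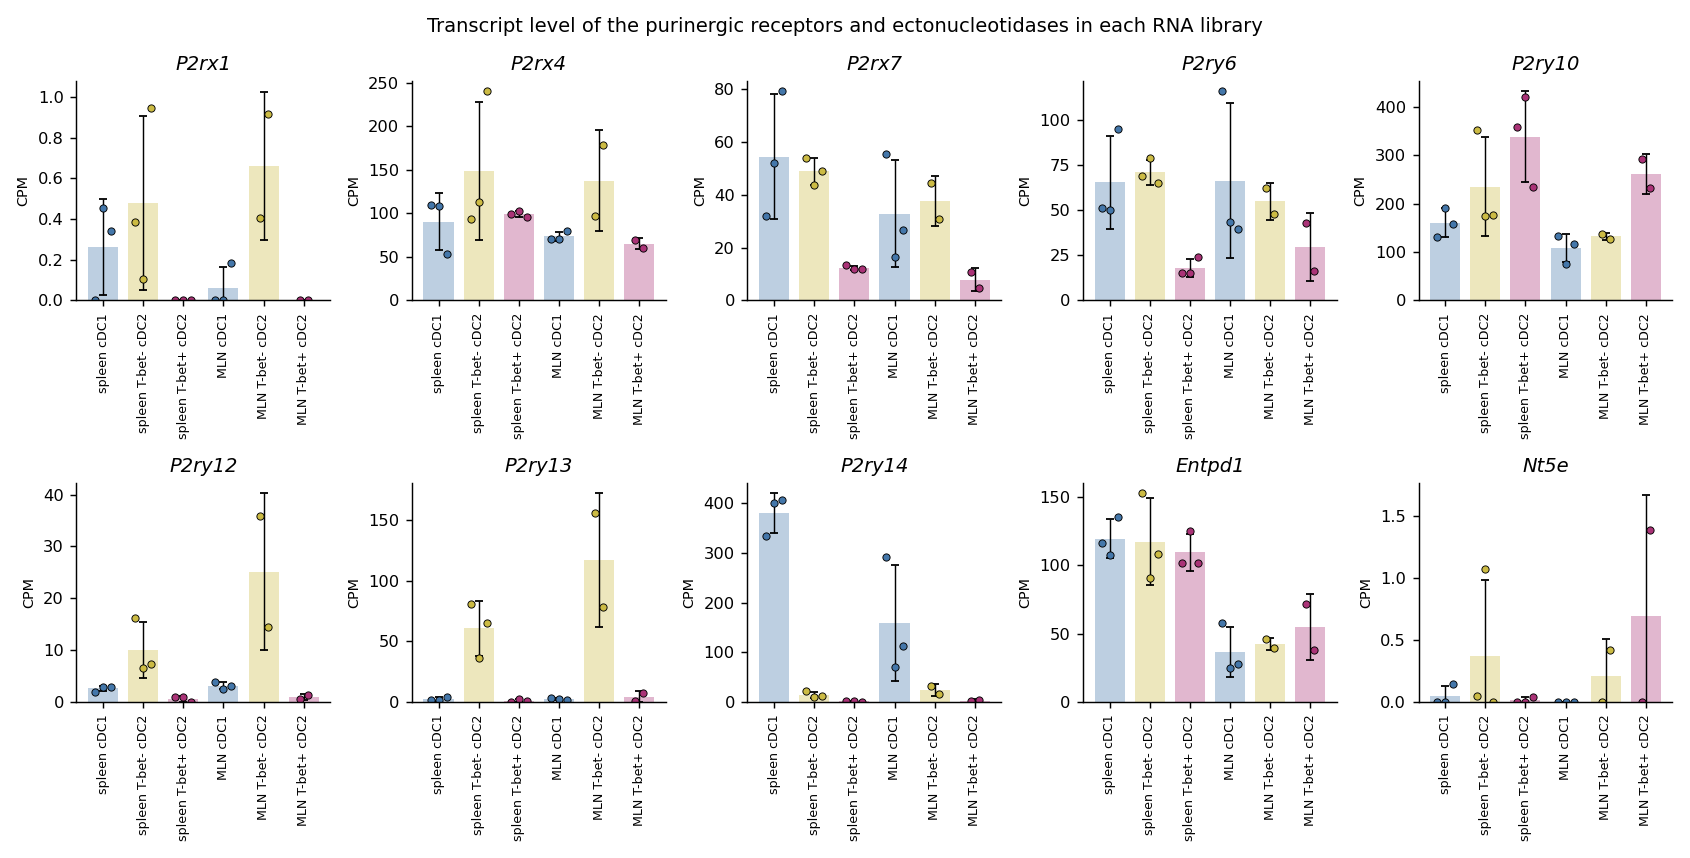
Transcript level in CPM (linear axis, own scale in each panel) of the 10 members in each RNA library (points) by tissue and subset, with bars at the mean and error bars of 1 SD (n = 3, or 2 for MLN cDC2s). P2ry14 reached 334 to 405 CPM in spleen cDC1s, P2ry13 36.3 CPM or more only in T-bet- cDC2s of these 6 groups, and P2rx1 and Nt5e stayed below 1.5 CPM in every library.

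Among the P2X channels, P2rx7, the channel tied to inflammasome activation, was low in T-bet+ cDC2s of both tissues. In spleen it was at 13.3, 11.9 and 11.7 CPM in T-bet+ cDC2s, at 53.8, 43.6 and 49.1 in T-bet- cDC2s and at 32.1, 51.9 and 79.1 in cDC1s. The T-bet+ libraries lay below all others, while T-bet- cDC2s and cDC1s overlapped. The log2 fold change was -1.99 ± 0.32 (SE, adjusted p = 0.00787) against T-bet- cDC2s and -2.14 ± 0.32 (adjusted p = 0.00152) against cDC1s, both by edgeR. With each spleen library left out in turn, the first difference ranged from -2.07 to -1.91 and the second from -2.46 to -1.77, all past the threshold. In MLN, P2rx7 was at 10.9 and 4.86 CPM in T-bet+ cDC2s, at 44.4 and 30.9 in T-bet- cDC2s and at 55.6, 16.4 and 26.7 in cDC1s, again without overlap between T-bet+ cDC2s and the rest, and neither difference passed in edgeR (adjusted p = 0.347 and 0.0944).

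P2rx4, a channel that opens at lower ATP and is also found on endolysosomes, overlapped between T-bet+ cDC2s and cDC1s in spleen. There it was at 99.1, 103 and 95.7 CPM in T-bet+ cDC2s and at 110, 109 and 52.9 in cDC1s. T-bet- cDC2s held 93.7, 113 and 240 CPM, where the library of 240 is replicate 3. The 2 libraries farthest from their group, T-bet- replicate 3 and cDC1 replicate 3, are also those whose correlation with transcript GC content has the other sign from the rest of their subset. The log2 fold change between T-bet+ and T-bet- cDC2s was -0.59 ± 0.38 (edgeR adjusted p = 0.469), and -1.21 (adjusted p = 0.0068) in a fit with that library class as a term, which also put T-bet- cDC2s above cDC1s (1.05, adjusted p = 0.00191). In MLN the level was 69.6 and 60.3 CPM in T-bet+ cDC2s, 96.4 and 178 in the T-bet- subset and 70.0, 70.5 and 79.7 in cDC1s.

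P2rx1, the channel best known from platelets, was close to absent. It had 0 counts in all 5 T-bet+ libraries and at most 25 in any library, and in spleen it did not pass the filter on low counts. A count of 0 allows up to 3 counts in a library, and this covers counting error only.

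The P2Y receptor with the widest range was P2ry14, which senses UDP-sugars such as UDP-glucose. Spleen cDC1s held 334, 401 and 405 CPM, T-bet- cDC2s 21.2, 9.71 and 11.7 and T-bet+ cDC2s 1.86, 1.72 and 0.622. The 3 subsets did not overlap, and each step was past the spread of the libraries. Against cDC1s the log2 fold change was -8.07 ± 0.53 (edgeR adjusted p = 1.02e-05) for T-bet+ and -4.74 ± 0.45 (adjusted p = 9.72e-05) for T-bet- cDC2s, and between the cDC2 subsets it was -3.33 ± 0.44 (adjusted p = 0.00259). These 3 calls held with each spleen library left out in turn. The 5 listed cDC1 marker genes (Xcr1, Clec9a, Cd8a, Cadm1 and Tlr3) moved the same way between the cDC2 subsets, with sums of 57.2, 40.5 and 73.4 CPM in T-bet- libraries and 13.2, 13.9 and 15.9 in T-bet+ libraries, against 2942 to 3319 in cDC1s. The part of cDC1 transcripts in the P2ry14 level of cDC2s was not tested.

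In MLN the order was the same. The cDC1s held 291, 70.7 and 114 CPM of P2ry14, T-bet- cDC2s 32.6 and 15.3 and T-bet+ cDC2s 1.13 and 4.55, without overlap between the 3 subsets. The cDC1 marker sums of the MLN cDC2 subsets did overlap, at 45.5 and 43.7 CPM in T-bet- libraries and 16.5 and 86.5 in T-bet+ libraries. T-bet+ cDC2s were lower than cDC1s by edgeR (log2 fold change -5.80 ± 0.98, adjusted p = 0.0143), and T-bet- cDC2s had -2.67 ± 0.82 against cDC1s (adjusted p = 0.11). Without T-bet+ replicate 1, the call against cDC1s was lost (-5.10, adjusted p = 0.0684), and without cDC1 replicate 1, the library low in migratory DC genes, it was -4.95 (adjusted p = 0.0155). The part of the migratory genes in the spread of the MLN libraries was not tested.

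P2ry13 and P2ry12, neighbouring receptors for ADP of which P2ry12 is the target of clopidogrel on platelets, were highest in T-bet- cDC2s. P2ry13 was at 80.9, 36.3 and 65.5 CPM in spleen T-bet- cDC2s, at 0.0792, 2.25 and 0.913 in T-bet+ cDC2s and at 1.38, 1.81 and 4.35 in cDC1s. In MLN it was at 156 and 78.4 CPM in T-bet- cDC2s, at 1.17 and 7.75 in T-bet+ cDC2s and at 3.12, 2.34 and 1.31 in cDC1s. Every T-bet- library exceeded every other library, and T-bet+ cDC2s and cDC1s overlapped in both tissues.

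The log2 fold change of P2ry13 in spleen was -5.80 ± 0.94 (edgeR adjusted p = 0.00785) for T-bet+ against T-bet- cDC2s and 4.60 ± 0.88 (adjusted p = 0.00636) for T-bet- cDC2s against cDC1s. Both held with each library left out. In MLN, T-bet- cDC2s exceeded cDC1s by 5.77 ± 0.79 (adjusted p = 0.00701), a call that was lost without T-bet- replicate 1 (5.14, adjusted p = 0.0596).

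P2ry12 showed the same arrangement at lower levels. It was at 16.2, 6.52 and 7.32 CPM in spleen T-bet- cDC2s, at 0.95, 0.937 and 0 in T-bet+ cDC2s and at 1.98, 2.92 and 2.95 in cDC1s, and the T-bet- libraries lay above the rest. The difference between the cDC2 subsets was -3.97 ± 0.93 on the log2 scale (edgeR adjusted p = 0.0394), and it missed the threshold without T-bet+ replicate 1 or 2 or T-bet- replicate 1 or 2 (adjusted p up to 0.12), with only the compared subsets (0.0578) and with library class as a term (0.0587). In MLN, P2ry12 was at 35.8 and 14.5 CPM in T-bet- cDC2s, at 0.489 and 1.39 in T-bet+ cDC2s and at 3.93, 2.56 and 3.02 in cDC1s. There T-bet- cDC2s exceeded cDC1s by 3.06 ± 0.55 (adjusted p = 0.0178), which was lost without cDC1 replicate 2 or 3 or T-bet- replicate 1 (adjusted p up to 0.176). Med12l, whose exons overlap those of P2ry12, was at 0.257 to 1.73 CPM in spleen T-bet- cDC2s, 0.158 to 0.498 in T-bet+ cDC2s and 1.42 to 4.24 in cDC1s. In MLN it was at 1.78 and 1.87 CPM in T-bet- cDC2s and 0.15 and 0.617 in the T-bet+ subset, the same direction as P2ry12, and at 3.94 to 6.33 in cDC1s, where P2ry12 was lower.

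Genes of macrophages and monocytes were also highest in T-bet- cDC2s. The 6 listed macrophage genes (Mertk, Fcgr1, Vcam1, C1qa, C1qb and Spic) summed to 568 to 786 CPM in spleen T-bet- cDC2s, 82.3 to 101 in T-bet+ cDC2s and 98.9 to 186 in cDC1s, and in MLN to 1060 to 1824, 36.6 to 171 and 70.8 to 206. In spleen each of the 6 was higher in every T-bet- than in every T-bet+ library. C1qb made up 213 to 302 CPM of the sum there, while Fcgr1, which encodes the CD64 that the sort removed, was at 5.36 to 7.91 and Mertk at 2.52 to 6.49. Mertk reached 0 in a T-bet+ library. The 4 monocyte genes (Ly6c2, Ccr2, F13a1 and Vcan) summed to 126 to 355 CPM in spleen T-bet- cDC2s and 4.95 to 7.18 in T-bet+ cDC2s, nearly all of it Ccr2 in the former (123 to 342), with Ly6c2 at 1.95 to 4.04. The 6 platelet genes (Pf4, Ppbp, Itga2b, Gp9, Gp1bb and Treml1) summed to 2.36 to 3.25 CPM in spleen T-bet- cDC2s and to 3.37 to 3.60 in MLN T-bet- cDC2s, where Ppbp, Gp1bb and Treml1 were at 0. T-bet+ libraries lay below these, at 0.600 to 0.954 in spleen and 1.00 to 2.03 in MLN, and cDC1s held 1.19 to 3.20 and 4.07 to 10.6. The part of other cell types in the levels of P2rx7, P2ry6, P2ry12 and P2ry13 was not tested.

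P2ry6, the UDP receptor linked to phagocytosis, was low in T-bet+ cDC2s of the spleen. These held 14.9, 15.3 and 23.8 CPM, against 69.0, 78.8 and 65.1 in T-bet- cDC2s and 51.3, 49.9 and 95.0 in cDC1s. No T-bet+ library reached any other spleen library. The log2 fold change was -1.98 ± 0.32 (edgeR adjusted p = 0.00817) against T-bet- cDC2s, which just missed the threshold without T-bet+ replicate 2 (-1.87, adjusted p = 0.052), and -1.86 ± 0.32 (adjusted p = 0.0032) against cDC1s. In MLN the subsets lay closer, with 42.8 and 16.1 CPM in T-bet+ cDC2s, 62.1 and 47.7 in the T-bet- subset and 116, 43.7 and 39.3 in cDC1s, where T-bet+ cDC2s and cDC1s overlapped.

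P2ry10, the lysophosphatidylserine receptor, had its highest means in T-bet+ cDC2s. In spleen it was at 359, 419 and 235 CPM in T-bet+ cDC2s, at 353, 174 and 177 in T-bet- cDC2s and at 131, 191 and 158 in cDC1s. Every T-bet+ library exceeded every cDC1 library, while the cDC2 subsets overlapped. In MLN it was at 291 and 233 CPM in T-bet+ cDC2s, at 137 and 127 in T-bet- cDC2s and at 132, 74.8 and 116 in cDC1s. Between the cDC2 subsets the log2 fold change was 0.53 ± 0.33 in spleen and 0.95 ± 0.34 in MLN. Neither passed in edgeR (adjusted p = 0.438 and 0.433). T-bet+ cDC2s exceeded cDC1s by 1.08 ± 0.33 in spleen (edgeR adjusted p = 0.0492) and by 1.30 ± 0.30 in MLN (adjusted p = 0.0465) on the log2 scale. Both calls were near the threshold. With each library left out in turn, the spleen call was kept only without T-bet+ replicate 3 (adjusted p = 0.0448) and the MLN call only without cDC1 replicate 1 (adjusted p = 0.0315), and the others gave up to 0.165 and 0.194. Per kilobase of exon, P2ry10 had the highest mean of the 10 genes in 5 of the 6 groups. Its means there ran from 36.2 ± 9.9 RPKM (CPM per kilobase of exon, with SD, n = 3) in MLN cDC1s to 113 ± 31 (n = 3) in spleen T-bet+ cDC2s. In MLN cDC1s, P2ry6 (22.9 ± 14.9) overlapped with it. The length was that of all annotated exons joined, 2982 bases for P2ry10 and 11059 for P2ry14. By CPM, P2ry14 had the higher mean in cDC1s, at 380 against 160 in spleen. In MLN cDC1s it was 158 against 108, with libraries that overlapped. In MLN T-bet- cDC2s, P2ry13 (46.4 ± 21.8, n = 2) and P2ry10 (44.3 ± 2.3) did not differ beyond their spread.

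Of the ectonucleotidases, Entpd1, which encodes CD39, was expressed by every subset, with levels that overlapped in spleen. There it was at 102, 125 and 101 CPM in T-bet+ cDC2s, at 153, 90.8 and 109 in T-bet- cDC2s and at 116, 107 and 135 in cDC1s. The log2 fold change between the spleen subsets lay within -0.12 and -0.03, with an SE of 0.23 each.

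Entpd1 did differ between tissues. MLN libraries held 71.8 and 38.0 CPM in T-bet+ cDC2s, 45.8 and 39.3 in the T-bet- subset and 57.7, 24.6 and 27.8 in cDC1s, each below every spleen library. Spleen exceeded MLN by 1.70 ± 0.34 in cDC1s (edgeR adjusted p = 0.0073), by 1.46 ± 0.38 in T-bet- cDC2s (adjusted p = 0.0384) and by 1.00 ± 0.38 in T-bet+ cDC2s (adjusted p = 0.117) on the log2 scale. The call in T-bet- cDC2s was kept only without spleen T-bet- replicate 3 (adjusted p = 0.0498) and was lost without any of the other 4 libraries (up to 0.233). Entpd1 was the member called in each of these 2 subsets, where 3.93% of all 16795 genes tested were higher in spleen and 7.75% lower for cDC1s, and 1.59% and 4.36% for T-bet- cDC2s. In T-bet+ cDC2s 0 members were called (2 at an unadjusted p under 0.05, and 0 with DESeq2), beside 1.3% and 3.79% of all genes. The mature migratory DC genes summed to 1466 to 4921 CPM in spleen libraries and to 10816 and 12202 in MLN T-bet- libraries. In MLN, the libraries with the lowest sums of their subset, cDC1 replicate 1 and T-bet+ replicate 1, held the most Entpd1. The part of these genes in the tissue difference was not tested, and the tissue and any difference in handling cannot be told apart.

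Nt5e, which encodes CD73, had 0 counts in 10 of the 16 libraries and at most 36 in any, and in spleen it did not pass the filter on low counts.

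In MLN, edgeR called 0 members, and 0% of the 15298 genes tested, between T-bet+ and T-bet- cDC2s, although 7 of 10 members and 1444 genes had an unadjusted p under 0.05. DESeq2 called 4 members (P2rx7, P2ry12, P2ry13 and P2ry14, all lower in T-bet+ cDC2s) and 328 genes. Blocked on the number in the library name, edgeR called 4 members and 130 genes. Each of the 5 members called in spleen had the same sign in MLN, from -0.94 ± 0.64 for P2ry6 to -4.79 ± 0.70 for P2ry12. P2rx7, P2ry12, P2ry13 and P2ry14 are on the study's core list, which required a difference in both tissues of these same libraries. For these genes, the shared sign and the DESeq2 calls in MLN are therefore not independent evidence. The same choice bears on the test that follows. The test of whether the difference between cDC2 subsets itself differed between tissues called 0 members (adjusted p of 0.949 or more; 0 at an unadjusted p under 0.05, and 0 with DESeq2), beside 0.00595% of 16795 genes. Against MLN cDC1s, T-bet+ cDC2s had 1 member higher and 1 lower of 10, where 4.11% of all genes were higher and 2.11% lower. T-bet- cDC2s had 2 higher (P2ry12 and P2ry13) and 0 lower, where 4.34% were higher and 1.44% lower. The 3 comparisons of a tissue share libraries and are not independent of each other.

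**Figure D2:**
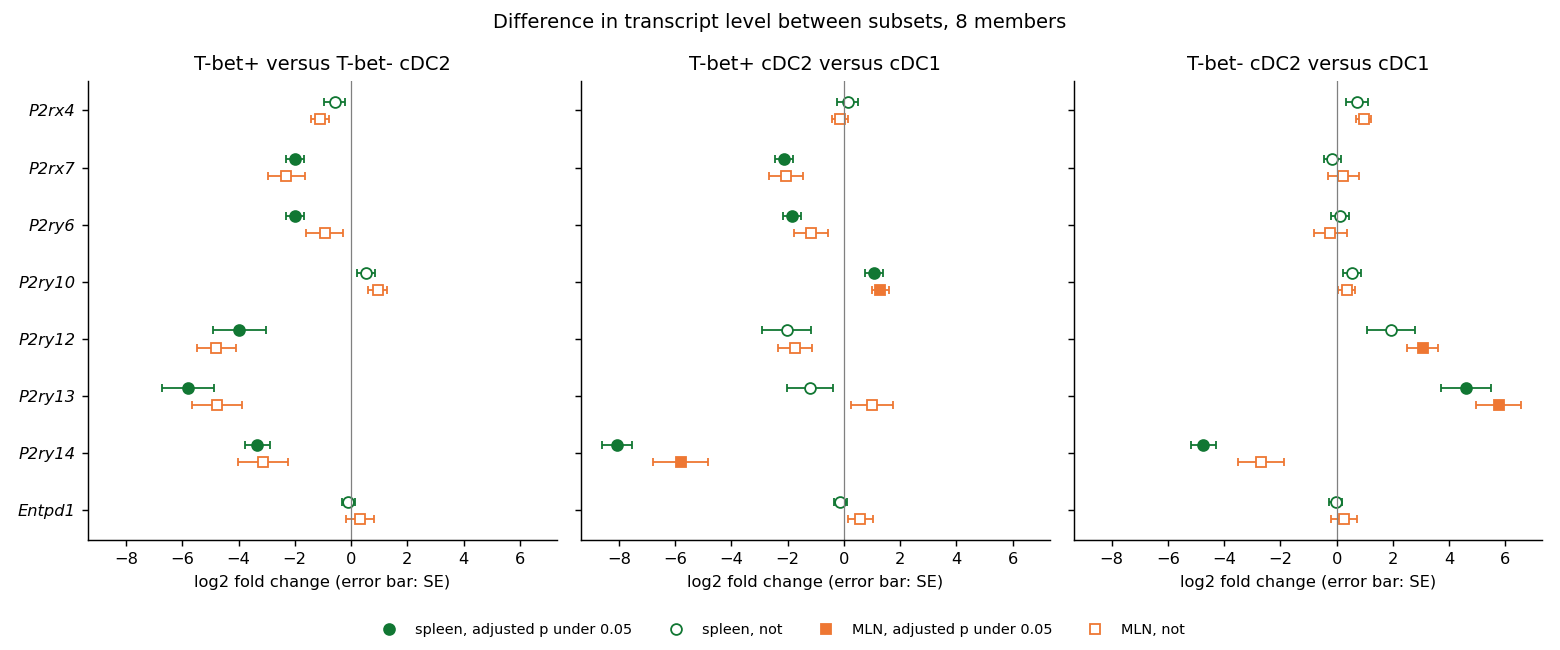
Log2 fold change in transcript level (horizontal axis) of 8 members in the 3 comparisons, in spleen (circles) and MLN (squares), with error bars of 1 SE from edgeR and filled symbols for an adjusted p under 0.05. P2ry13 and P2ry14 part the subsets most, at -5.80 between spleen cDC2 subsets and -8.07 between spleen T-bet+ cDC2s and cDC1s, while spleen Entpd1 lies between -0.12 and -0.03.

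Of 40 further genes listed for purinergic signalling, 38 were in the table and 26 were tested in spleen. Between T-bet+ and T-bet- cDC2s 0 were higher and 2 lower: Cd38, an ectoenzyme that uses NAD, by -1.41 ± 0.25 (edgeR adjusted p = 0.012), and Slc29a3, an endosomal nucleoside transporter named here after its value was seen, by -1.74 ± 0.32 (adjusted p = 0.0138). Against cDC1s 7 were higher and 6 lower in T-bet+ cDC2s, and 8 higher and 6 lower in T-bet- cDC2s. Over all genes tested, 1.95% were higher and 3.44% lower between the cDC2 subsets, 9.97% and 8.2% in T-bet+ cDC2s against cDC1s, and 9.65% and 6.2% in T-bet- cDC2s against cDC1s. The median log2 fold changes of the 26 were -0.35, -0.05 and 0.27 in the 3 comparisons, beside -0.01, 0.03 and -0.01 over all genes.

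In spleen, Slc29a1, an equilibrative nucleoside transporter, was at 139 to 168 CPM in T-bet+ and 154 to 217 in T-bet- cDC2s against 39.0 to 49.6 in cDC1s, a log2 fold change of 1.79 ± 0.21 (edgeR adjusted p = 0.000303) and 2.06 ± 0.21 (adjusted p = 0.000145). Ada, which deaminates adenosine, was higher by 1.97 ± 0.31 and 1.84 ± 0.31, while Adk, which phosphorylates it, had -1.45 ± 0.26 and -1.2 ± 0.26. Adora2b was 2.54 ± 0.49 and 3.68 ± 0.51 higher in the T-bet+ and the T-bet- subset, and Adora3 had -3.17 ± 0.50 and -3.33 ± 0.50. Each of these differences passed the test. P2ry2, a receptor for ATP and UTP, was at 1.74 to 5.42 CPM in T-bet+ and 2.21 to 8.57 in T-bet- cDC2s against at most 0.145 in cDC1s (adjusted p = 0.0024 and 0.00198). Slc28a3 was at 0.873 to 1.83 CPM in T-bet- cDC2s and had 0 counts in the 3 cDC1 libraries.

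The ectoenzymes Alpl, Cd38 and Bst1 were higher in spleen cDC1s than in either cDC2 subset. Alpl, which dephosphorylates nucleotides, was at 20.1 to 25.7 CPM in spleen cDC1s and at most 0.385 in spleen cDC2s, and at 5.24 to 12.7 in MLN cDC1s and at most 0.347 in MLN cDC2s. Cd38 was at 115 to 191 CPM in spleen cDC1s, 42.3 to 51.4 in T-bet- and 14.2 to 20.1 in T-bet+ cDC2s, and Bst1, its paralogue, at 16.2 to 19.0, 0.604 to 3.29 and at most 0.375. In MLN the order of Cd38 differed, with 137 and 55.4 CPM in T-bet- cDC2s, 13.8 and 33.6 in the T-bet+ subset and 45.4, 29.5 and 30.5 in cDC1s, and T-bet- cDC2s had 1.52 ± 0.50 against cDC1s (adjusted p = 0.135). In MLN 28 of the list were tested, 0 were called between the cDC2 subsets, and 1 was higher and 1 lower in each cDC2 subset than in cDC1s, beside 4.11% and 2.11% of all genes for T-bet+ and 4.34% and 1.44% for T-bet- cDC2s. Between tissues, Adora2a, a receptor for adenosine, was at 21.6, 20.8 and 37.3 CPM in spleen cDC1s and 56.7, 246 and 238 in MLN cDC1s. The log2 fold change of spleen over MLN was -2.76 ± 0.53 in cDC1s (edgeR adjusted p = 0.00669) and -2.27 ± 0.55 in T-bet- cDC2s. MLN T-bet+ cDC2s held 51.5 and 184 CPM of Adora2a, and in both subsets replicate 1, the library lowest in migratory DC genes, was also the lowest in Adora2a. Their part in the tissue difference was not tested. P2rx6 had 0 counts in spleen cDC1s and T-bet+ cDC2s and was at 0.602 to 5.03 CPM in MLN cDC1s and T-bet+ cDC2s. In T-bet- cDC2s it was at 0.0963 to 0.308 CPM in spleen and at 3.43 and 2.22 in MLN.

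The neighbours of the chromosome 3 receptors were uneven. Gpr171, on the minus strand past P2ry14, was at 954 to 1187 CPM in spleen cDC1s, 39.3 to 85.2 in T-bet- and 25.8 to 52.4 in T-bet+ cDC2s. It was lower than in cDC1s by a log2 fold change of -4.16 ± 0.37 and -4.77 ± 0.38 (edgeR adjusted p = 6.66e-05 and 3.43e-05), and the cDC2 subsets overlapped. Igsf10 was at most 0.189 CPM in any library.

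Chromatin was tested in spleen over 166547 windows, of which 123 lay at the 10 loci (4 did not pass the filter on low counts). A window was called at an adjusted p under 0.01 in edgeR with an absolute log2 fold change over 0.5. Between T-bet+ and T-bet- cDC2s, 4 windows of the loci were more open and 3 less open in T-bet+ cDC2s, beside 3.92% and 2.36% of all windows. Against cDC1s, T-bet+ cDC2s had 14 windows more open and 14 less, beside 11% and 12% of all windows. T-bet- cDC2s had 4 more open and 12 less, beside 7.32% and 10.6%. No share of the loci was tested against that of all windows.

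**Figure D3:**
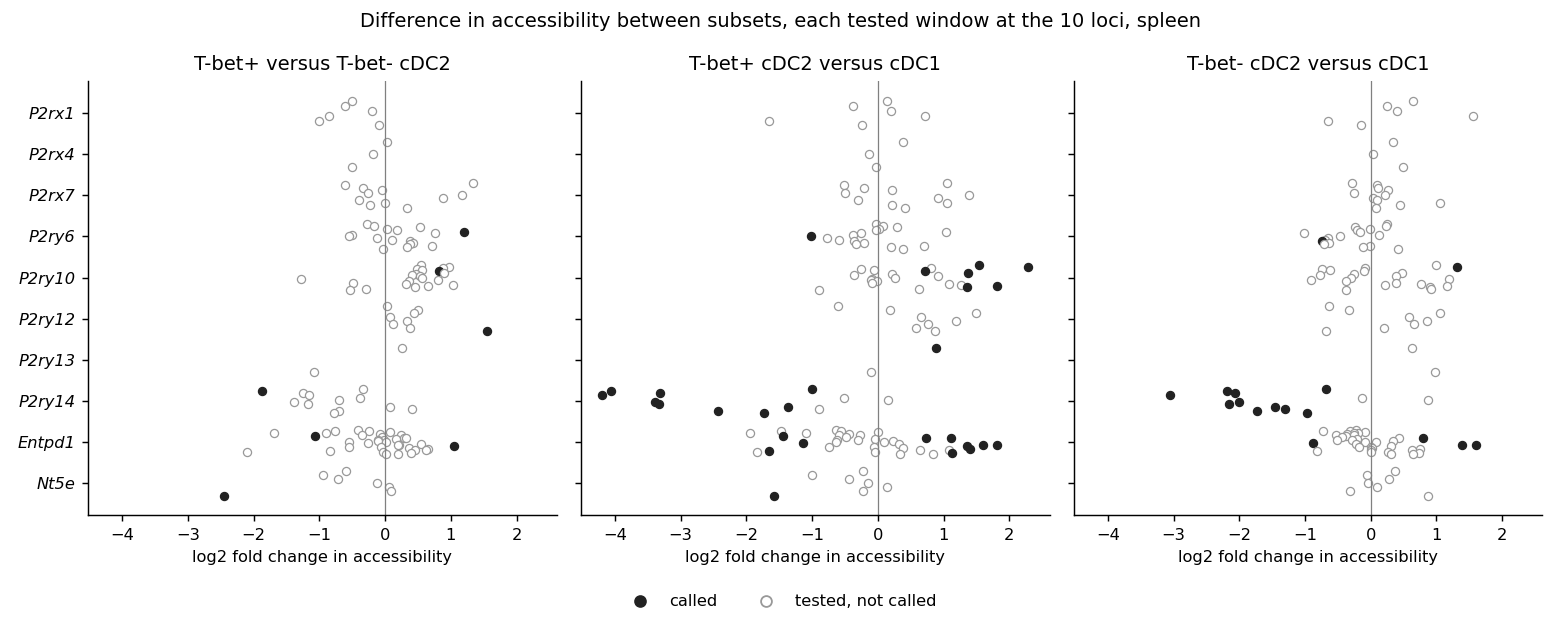
Log2 fold change in accessibility (horizontal axis) of each tested window at the 10 loci in the 3 comparisons, ordered within a locus by distance from the gene's start, with black points for called windows. At P2ry14, 9 windows were called less open in T-bet+ cDC2s than in cDC1s, and at P2rx1, P2rx4 and P2rx7 0 windows were called.

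At P2ry14, 10 of 12 windows were less open in T-bet- cDC2s than in cDC1s, 9 were so in the T-bet+ subset, and 0 were more open. The window shown at 530 bases after the start held 14.8 and 15.5 CPM in cDC1s, 2.69 and 3.91 in T-bet- cDC2s and 0.755 and 1.04 in the T-bet+ subset. The 3 subsets did not overlap in it, and all 3 comparisons called it, with log2 fold changes of -4.06 ± 0.36 and -2.18 ± 0.30 against cDC1s and -1.88 ± 0.42 between the cDC2 subsets. It was the 1 window at P2ry14 called between cDC2 subsets. Like the transcript, it was highest in cDC1s, whose marker genes summed to 40.5 to 73.4 CPM in the T-bet- and 13.2 to 15.9 in the T-bet+ RNA libraries of spleen, and the part of cDC1s in this difference was not tested. The window at the start itself differed less, with 33.3 and 32.6 CPM in cDC1s, 22.4 and 19.1 in T-bet- and 16.7 and 16.1 in T-bet+ cDC2s. Further in, a window at 14507 bases had the largest fold of the locus against cDC1s (-4.20 ± 0.56 for T-bet+ cDC2s), with 3.76 and 6.46 CPM in cDC1s and at most 0.702 in cDC2s. All windows of the chromosome 3 receptors also lie within Med12l.

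**Figure D4:**
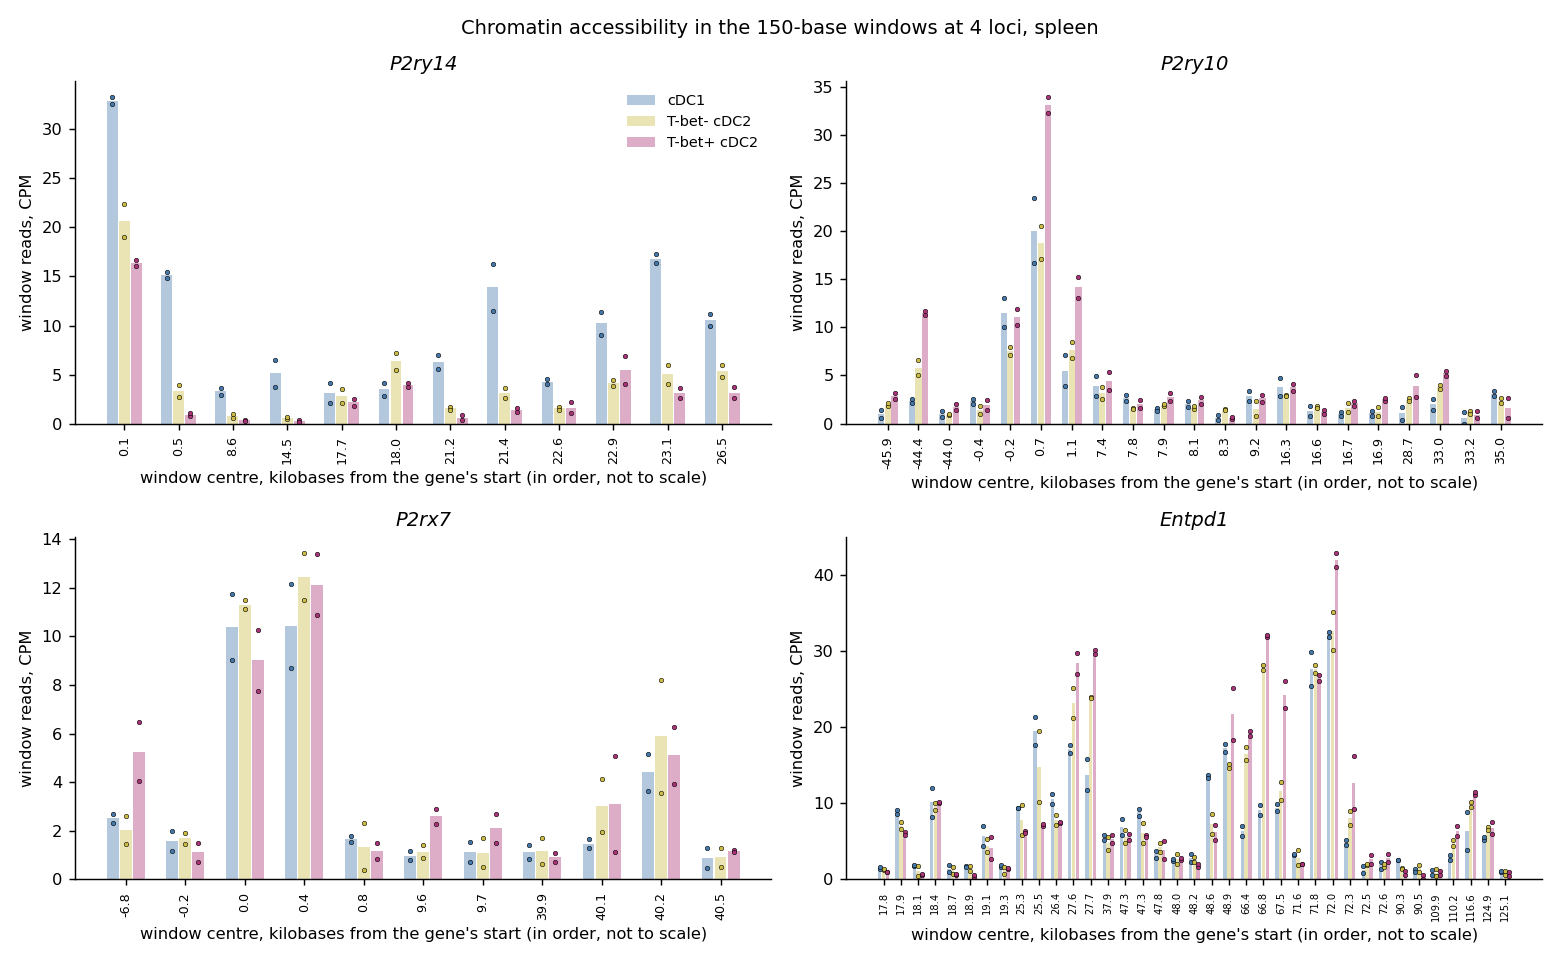
Reads in each 150-base window (CPM, linear axis) at P2ry14, P2ry10, P2rx7 and Entpd1 in spleen, with points for the 2 libraries of a subset and bars for their mean, in order of distance from the gene's start. The window 530 bases after the P2ry14 start falls from 14.8 and 15.5 CPM in cDC1s to 0.755 and 1.04 in T-bet+ cDC2s, while 0 windows at P2rx7 were called.

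At P2rx7, whose transcript was lower in T-bet+ cDC2s, 0 of 11 windows were called in any comparison. The window nearest the start held 10.3 and 7.77 CPM in T-bet+ cDC2s, 11.5 and 11.1 in the T-bet- subset and 11.8 and 9.04 in cDC1s, with a log2 fold change of -0.33 ± 0.25 between the cDC2 subsets. The next, 444 bases in, had -0.04 ± 0.23. A window 6764 bases before the start had 6.47 and 4.04 CPM in T-bet+ cDC2s against 1.47 and 2.61 in T-bet- cDC2s, the opposite direction from the transcript, and did not pass (1.33 ± 0.38). The 3 windows at P2rx4 and the 6 tested at P2rx1 had 0 calls as well.

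P2ry12 and P2ry13 had few called windows. At P2ry12, 1 of 8 was called between the cDC2 subsets, the window shown at 43340 bases, and it was more open where the transcript was lower: 10.4 and 9.02 CPM in T-bet+ cDC2s, 3.05 and 3.51 in the T-bet- subset and 4.94 and 5.68 in cDC1s (log2 fold change 1.55 ± 0.30). The window nearest the annotated P2ry12 start had 8.42 and 9.02 CPM in T-bet+ cDC2s, 8.92 and 8.22 in the T-bet- subset and 12 and 14.6 in cDC1s. At P2ry13, the window at the start was at 22.3 and 20.0 CPM in T-bet+ cDC2s, 18.2 and 17.3 in the T-bet- subset and 9.87 and 13.2 in cDC1s. It was called between T-bet+ cDC2s and cDC1s (0.88 ± 0.21), 2 subsets whose transcript levels overlapped.

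P2ry10 had 6 of 21 windows more open in T-bet+ cDC2s than in cDC1s and 0 less open. The most open, 738 bases after the start, was at 33.9 and 32.2 CPM in T-bet+ cDC2s, 20.5 and 17.0 in the T-bet- subset and 16.7 and 23.4 in cDC1s, and was the 1 window of the locus called between cDC2 subsets (0.82 ± 0.19). The window shown at 44373 bases before the start was at 11.3 and 11.7 CPM in T-bet+ cDC2s, 5.01 and 6.62 in the T-bet- subset and 2.12 and 2.58 in cDC1s. It exceeded cDC1s by 2.29 ± 0.32 and 1.31 ± 0.34 on the log2 scale in the T-bet+ and T-bet- subsets. At P2ry6, 1 of 17 windows was called between cDC2 subsets, 10435 bases after the start and more open in T-bet+ cDC2s (1.2 ± 0.33), the opposite of the transcript. Against cDC1s, a P2ry6 window at 28031 bases was less open in T-bet+ cDC2s (-1.01 ± 0.32), the direction of the transcript, and 1 at 30172 bases was less open in T-bet- cDC2s (-0.74 ± 0.22), whose transcript level overlapped that of cDC1s.

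Entpd1 held the most windows, 36 tested, and they went both ways while the transcript levels of the spleen subsets overlapped. Against cDC1s, T-bet+ cDC2s had 7 more open and 3 less open. The window shown at 66809 bases was at 31.8 and 32.1 CPM in T-bet+ cDC2s, 28.2 and 27.6 in the T-bet- subset and 8.46 and 9.82 in cDC1s (1.80 ± 0.20 and 1.61 ± 0.20 against cDC1s). Between the cDC2 subsets, a window at 67484 bases was more open in T-bet+ cDC2s (26.0 and 22.5 against 10.4 and 12.8 CPM, 1.05 ± 0.21) and 1 at 25466 bases less open (-1.07 ± 0.25). At Nt5e, whose transcript was near 0, the window shown at 21627 bases was at 0.863 and 1.87 CPM in T-bet+ cDC2s, 9.04 and 6.22 in the T-bet- subset and 4.35 and 3.88 in cDC1s (-2.46 ± 0.38 between cDC2 subsets). It had the largest fold of the 123 windows between the cDC2 subsets.

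The 7 motifs were searched on both strands in every window, as T-box AGGTGTNA, Runx TGTGGTT, C/EBP TTGCNNAA, ROR TAGGTCA, PU.1 GAGGAAGT, IRF GAAANNGAA and AP-1 TGANTCA. Of the 127 windows at the loci, 2 held the T-box letters, 3 Runx, 13 C/EBP, 3 ROR, 3 PU.1, 12 IRF and 9 AP-1, where 1.92%, 5.23%, 5.89%, 1.57%, 5.5%, 5.61% and 7.9% of all 177956 windows did. Among the 32 windows called in any comparison, 0 held T-box or ROR letters, 1 Runx, 4 C/EBP, and 2 each PU.1, IRF and AP-1. A match is a description of these letters and not of binding.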

How the data were processed

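RNA-seq (16 libraries) and ATAC-seq (6 libraries) of sorted dendritic cells were analysed. Per the submitters' processing notes, HISAT2 2.1.0, Bowtie2 2.2.5, SAMtools 1.9, MACS2 2.1.1.20160309 and R 3.4.0 were used, and the coordinates are mm10. The authors deposited whole-number read counts per gene and per window of 150 bases around an ATAC summit, without normalization. The deposited peak list carries a score that is 0 throughout, and the deposited summit list a value taken from its minimum to be a −log10 p-value. Neither value was used. No value column was left without a sample.

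Counts were tested with edgeR 4.0.16 in R 4.3.3 (edgeR's filter on low counts, TMM size factors, quasi-likelihood test, Benjamini-Hochberg adjustment over all features), with all 3 subsets of a tissue in a fit, and with all 6 groups for tissue differences. Calls needed an adjusted p under 0.05 for RNA, and under 0.01 for ATAC, where the log2 fold change also had to pass 0.5 in either direction. Fold changes used a prior count of 0.125. A peak was assigned to the closest gene within 50000 bases. Sequences were read with pysam 0.24.0 and samtools 1.23.1. The edgeR test between T-bet+ and T-bet- cDC2s was run on simulated counts for spleen RNA, MLN RNA and spleen ATAC, with the outcome not given here. The simulated libraries were drawn independently, so this check does not cover library class or differences in migratory DC genes. The other comparisons were not checked in this way.

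The members and lists were chosen with earlier results of these data known. The text names all members, at most 12 called genes of the pathway list by smallest adjusted p, some of the called windows and chromosome 3 neighbours. It also names the 3 genes most like P2ry12, P2ry13 and P2ry14 and the gene most like each other member with enough reads. P2ry10b and Entpd4 were not analysed here. A neighbouring gene and a window are not reported here. Gene models and lengths came from a GENCODE release later than the authors'. Alternatives were DESeq2 1.42.0, edgeR with DESeq2's size factors, tests with no filter, fits of the compared subsets alone, a block for the replicate number, library class (the sign of the correlation with transcript GC content) as a term, stricter ATAC thresholds (adjusted p 0.001 and log2 fold change 1) and leaving out each library. At these depths precision is limited by the number of libraries.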

Additional observations from a re-analysis of the deposited data

How the results depend on the processing

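Of the single genes under an alternative, 376 values kept their side of the threshold, 35 newly passed and 32 no longer passed, and 0 changed direction after being called. Of the windows, 353 kept their side and 106 no longer passed. Members with 50 or more counts in a library entered by an unadjusted p under 0.05 in the main test or a call in any setting. Windows entered only where the main test called them, so a new pass was not possible and the 2 tallies are not comparable. Counts of members called in MLN moved most. Between T-bet+ and T-bet- cDC2s, 0 became 4 with DESeq2 and 4 with no filter. Over all genes, 0 of 15298 became 328 of 16160 and 554 of 27006. Between T-bet+ cDC2s and cDC1s, 2 became 4 with DESeq2 and 6 with no filter. It became 1 with library class as a term and 1 with only the compared subsets. Over all genes and in the same order, 952 of 15298 became 2015 of 17192, 2257 of 27006, 409 of 15298 and 586 of 14637. With no filter, members called between tissues went from 1 to 2 in cDC1s and from 0 to 2 in T-bet+ cDC2s. Over all genes, calls went from 1961 to 3397 and from 855 to 2875, with 16795 tested before and 34047 after. Called windows fell under the stricter threshold from 7 to 4 between cDC2 subsets, from 28 to 17 between T-bet+ cDC2s and cDC1s and from 16 to 8 between T-bet- cDC2s and cDC1s, where DESeq2 gave 9. The stricter counts follow from the thresholds, and the cause of the other moves was not tested.

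Without 1 library, members called between the cDC2 subsets, between the T-bet+ subset and cDC1s, and between the T-bet- subset and cDC1s numbered 3 to 5, 3 to 4 and 2 to 2 in spleen and 0 to 0, 0 to 2 and 0 to 2 in MLN, and windows 3 to 9, 19 to 29 and 9 to 10. Between tissues they numbered 1 to 3 in cDC1s, 0 to 1 in T-bet- cDC2s and 0 to 0 in T-bet+ cDC2s, and 0 to 0 for the interaction. Without MLN cDC1 replicate 1, P2rx7 (1.40, edgeR adjusted p = 0.0358) and P2ry14 (2.11, adjusted p = 0.0264) were also higher in spleen than in MLN cDC1s.

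Libraries with the same replicate number did not deviate together throughout. Their correlations were -0.74 to 0.43 in spleen, -0.14 to 0.66 in MLN and -0.05 to 0.02 in ATAC. The replicate number was therefore not read as a pairing. By the number in the library name, which differs for MLN T-bet- cDC2s, the MLN correlations were -0.01 to 0.66. The labels do not say whether either number marks a pairing. With the replicate number as a block, 4, 3 and 2 members were called in spleen, beside 356, 1920 and 1610 of all 14377 genes. MLN gave 0, 2 and 1 members, beside 0, 539 and 515 of 15298 genes. In ATAC, 6, 27 and 15 windows were called, beside 9754, 37314 and 28852 of all 166547. Blocked on the number in the library name, MLN gave 4, 6 and 4 members, beside 130, 2440 and 2477 of 15298 genes. Without a block, 0, 952 and 885 genes were called. Between tissues the block on the replicate number left the members called at 1, 1, 0 and 0, beside 1609, 1019, 627 and 1 of 16795 genes.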

Other observations

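Across the 16 RNA libraries, the genes whose level was most like each member's were found among 11086 genes (Pearson's r of log2(CPM + 0.5), a description over libraries that share subset and tissue). P2ry14 was most like Hk3 (0.99), Gatm (0.98) and Cxcl9 (0.98), a chemokine gene. P2ry13 was most like Slc1a2 (0.96), Clec5a (0.95) and Lyz1 (0.94), a lysozyme gene, and P2ry12 like Lgals3bp (0.93), Sorbs3 (0.91) and Il1a (0.90), which encodes a cytokine. P2rx7 was most like Mknk1 (0.95), P2ry6 like Pisd (0.92), P2rx4 like Camk1 (0.92), P2ry10 like Rad51c (0.94) and Entpd1 like Mthfd1 (0.97), an enzyme of folate metabolism.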
